A study of Homo sapiens with 12 samples.

Results

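Chromosome 9 genes were compared by position in HEL cells with and without CRISPR-Cas9 inactivation of KDM4C, a histone demethylase whose gene lies on the short arm of this chromosome. A row of the count table was taken as a member when its first chromosome entry was chromosome 9 and it reached a CPM of at least 1 (counts scaled to 1000000 per library) in 4 or more of the 12 libraries. This gave 518 members of 1602 chromosome 9 rows, against 13004 genes at the same minimum in the whole table. Of the members 137 lay on the short arm (start below 43 Mb), 379 on the long arm (start above 65 Mb) and 2 between these limits, and 458 were protein-coding. HEL is an established human erythroleukemia line with mutated JAK2, and the cells used here also express Cas9. Control cells carried a guide against luciferase, and the other groups carried 1 of 2 guides against KDM4C, named sg2 and sg3. Puromycin selection (11 days, 1.5 µg/mL) was the same in all groups, and the column names mark all 12 libraries as vehicle (DMSO). Each group had 4 libraries, the division into replicates came after transduction and selection, and the p-values given below thus rest on library spread that may be technical only.

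Total counts lay between 10031809 and 78966125 per library. All 8 erythroid markers (among them GATA1 and KLF1) and 5 of 6 megakaryocyte markers reached 1 CPM in control, as did all 3 endothelial markers. None of 4 fibroblast markers did. Of 4 T cell markers 2 did (CD2 and CD4). Of 4 markers each, 1 B cell (CD79A), 1 monocyte (LYZ) and 1 granulocyte marker (CSF3R) did. LYZ and CD4 were the highest monocyte and T cell markers, at 37.6 and 130 CPM in control, while CD3D and ELANE were at or near 0.

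Chromosome 9 has a gene-poor band of repeats around its centromere, which separates the arms in this comparison. The short arm carries JAK2, the tyrosine kinase of erythropoietin signalling, next to CD274 (PD-L1), and further in the tumour suppressor locus CDKN2A and CDKN2B and the type I interferon genes. The long arm carries ABL1, NOTCH1, TSC1, SYK and GFI1B, and a dense block of housekeeping genes near its end. KDM4C removes methyl groups from histone H3 lysines and acts on chromatin across the genome, and both guides cut within its own gene, so position on chromosome 9 was also read as distance from the cut.

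The guide sites are shown first, because they divide the short arm into a telomere side and a centromere side. Guide sg2 matched hg38 chr9:7011804-7011823 on the plus strand, in exon 13 of 22 of KDM4C. Guide sg3 matched chr9:6984259-6984278 on the minus strand, in exon 10 of 22, and the cut positions lie 27559 bases apart. Each guide had 1 exact match in the genome. Both exons are coding. The lines give 120 bases of hg38 in the direction of each guide, with the guide and its adjacent PAM in capitals.
sg2 site: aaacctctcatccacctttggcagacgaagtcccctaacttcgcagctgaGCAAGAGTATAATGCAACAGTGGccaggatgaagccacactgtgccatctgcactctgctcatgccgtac
sg3 site: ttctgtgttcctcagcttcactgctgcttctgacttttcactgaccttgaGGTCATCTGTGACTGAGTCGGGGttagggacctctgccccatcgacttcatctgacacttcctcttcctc

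The promoters of the 4 protein-coding members with the largest changes are shown next, since their values open the accounts of the arms. Of the members, 107 on the short arm and 308 on the long arm matched a promoter in RefSeq (GRCh38.p14), a window from 250 bases before to 50 after the gene start. The GC box, read as GGGCGG on either strand, stood in 76.6% of the short-arm windows and 72.4% of the long-arm windows, against 69.2% of 9911 windows of genes at the same minimum and 44.6% of all 27305. The TATA box, read as TATAAA, stood in 5.61% and 5.84%, against 5.63% of the windows at the same minimum. Capitals mark GC boxes. The rule for members took VLDLR through knockout libraries alone and SLC2A8 through control libraries alone, so their changes are not independent of it. Among protein-coding members VLDLR and TRAF1 were the largest rises, SLC2A8 and RXRA the largest falls. Their windows lie at chr9:2621537-2621836 (plus strand), chr9:120929122-120929421 (minus strand), chr9:127396919-127397218 (plus strand) and chr9:134326205-134326504 (plus strand).
VLDLR promoter: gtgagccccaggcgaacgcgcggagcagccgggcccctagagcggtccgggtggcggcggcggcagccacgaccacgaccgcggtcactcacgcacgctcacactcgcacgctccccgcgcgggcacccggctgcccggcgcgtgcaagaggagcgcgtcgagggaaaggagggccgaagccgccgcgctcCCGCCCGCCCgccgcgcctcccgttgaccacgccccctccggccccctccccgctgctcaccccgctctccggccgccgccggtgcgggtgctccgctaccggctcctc
TRAF1 promoter: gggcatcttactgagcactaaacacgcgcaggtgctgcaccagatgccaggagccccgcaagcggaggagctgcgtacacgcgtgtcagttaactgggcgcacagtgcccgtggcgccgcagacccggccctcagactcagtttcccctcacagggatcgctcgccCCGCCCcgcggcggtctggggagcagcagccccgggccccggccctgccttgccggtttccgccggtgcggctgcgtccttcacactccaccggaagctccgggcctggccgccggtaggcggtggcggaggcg
SLC2A8 promoter: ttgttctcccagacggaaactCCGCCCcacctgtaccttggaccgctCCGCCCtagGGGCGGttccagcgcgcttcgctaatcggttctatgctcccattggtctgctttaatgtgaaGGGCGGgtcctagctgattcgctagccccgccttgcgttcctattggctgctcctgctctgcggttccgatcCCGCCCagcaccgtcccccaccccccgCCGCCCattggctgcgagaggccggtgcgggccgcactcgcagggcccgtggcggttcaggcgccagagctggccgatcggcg
RXRA promoter: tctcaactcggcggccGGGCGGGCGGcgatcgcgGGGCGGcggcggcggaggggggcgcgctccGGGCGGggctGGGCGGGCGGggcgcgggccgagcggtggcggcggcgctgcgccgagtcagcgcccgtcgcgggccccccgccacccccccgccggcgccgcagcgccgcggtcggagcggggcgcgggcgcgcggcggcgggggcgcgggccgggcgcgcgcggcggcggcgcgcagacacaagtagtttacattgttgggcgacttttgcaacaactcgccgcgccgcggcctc

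Long-arm members were called lower in knockout cells more often than higher, and short-arm members about as often in each direction. Over the 379 long-arm members the median log2 fold change of the knockout average (the mean of sg2 and sg3) against control was -0.129, with 177 members called lower and 51 called higher. Over the 137 short-arm members the median was 0.0079, with 29 called lower and 32 higher. A member was called at an adjusted p of 0.05 in edgeR's quasi-likelihood test, where the Benjamini-Hochberg adjustment covered the 13996 genes of the fit. Of all genes tested 22.3% were called lower and 21.6% higher, and of the 13004 genes at the same CPM minimum 23.5% and 22.5%, with a median of -0.0060. Among all 518 members 206 (39.8%) were called lower and 83 (16.02%) higher. RNA was measured in bulk, so fewer cells that express a gene and less RNA per cell cannot be told apart.

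Each guide gave this division on its own, with the same control libraries in both comparisons. With sg2 the long-arm median was -0.132, with 147 members called lower and 28 higher, and the short-arm median was 0.0092, with 17 lower and 20 higher, where 13.9% of all genes tested were called lower and 14.5% higher. With sg3 the long-arm median was -0.141, with 167 called lower and 58 higher, and the short-arm median was 0.013, with 27 lower and 33 higher, where 22.2% of all genes were called lower and 21.9% higher. Most of the changes were small. Of the 177 long-arm falls 73 were under 0.25 on the log2 scale, 94 lay between 0.25 and 0.5, 7 between 0.5 and 1, and 3 past 1.

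The arms differed in each knockout library, with a long-arm minus short-arm median of -0.171 to -0.114 in the 8 knockout libraries. In the 4 controls it spread from -0.0068 to 0.015. Log2 CPM was set against the mean of the 4 control libraries and the median taken over the members of an arm. The control libraries thus lie around this mean by construction on both arms, and only their spread can be read. For the long arm this median was 0.0011, 0.0022, 0.0052 and -0.0059 in control libraries 1 to 4. It was -0.115, -0.122, -0.125 and -0.134 in the sg2 libraries and -0.129, -0.133, -0.143 and -0.131 in the sg3 libraries, so all 8 knockout libraries lay below all 4 controls. For the short arm it was 0.0047, 0.0090, -0.0094 and -0.0036 in control, -0.0012, 0.0080, 0.0068 and 0.036 with sg2, and 0.038, 0.029, 0.028 and 0.015 with sg3. Of the long-arm members 48.0 to 52.5% were below the control mean in a control library, and 67.3 to 74.9% in a knockout library. On the short arm these shares were 44.5 to 54.0% in control and 39.4 to 50.4% in knockout. All 8 knockout libraries lay below all 4 controls for 119 long-arm members (31.4%) and above for 27 (7.12%), against 11.3% and 12% of all genes tested. On the short arm 12 members (8.76%) lay below and 15 (10.9%) above.

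The same division was read from raw counts, with no scaling of single genes. All rows of the long arm together took 2.25%, 2.25%, 2.25% and 2.24% of the counts in control libraries 1 to 4. They took 2.08%, 2.08%, 2.08% and 2.06% in the sg2 libraries and 2.06%, 2.06%, 2.06% and 2.07% in the sg3 libraries. This is 7.69% less with sg2 and 8.27% less with sg3, and without the 10 most abundant genes (HNRNPK, SET, HSPA5, RPL12 and others) the share fell by 7.58% and 7.15%. The short arm took 1.43 to 1.46% of counts in every group.

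**Figure D1:**
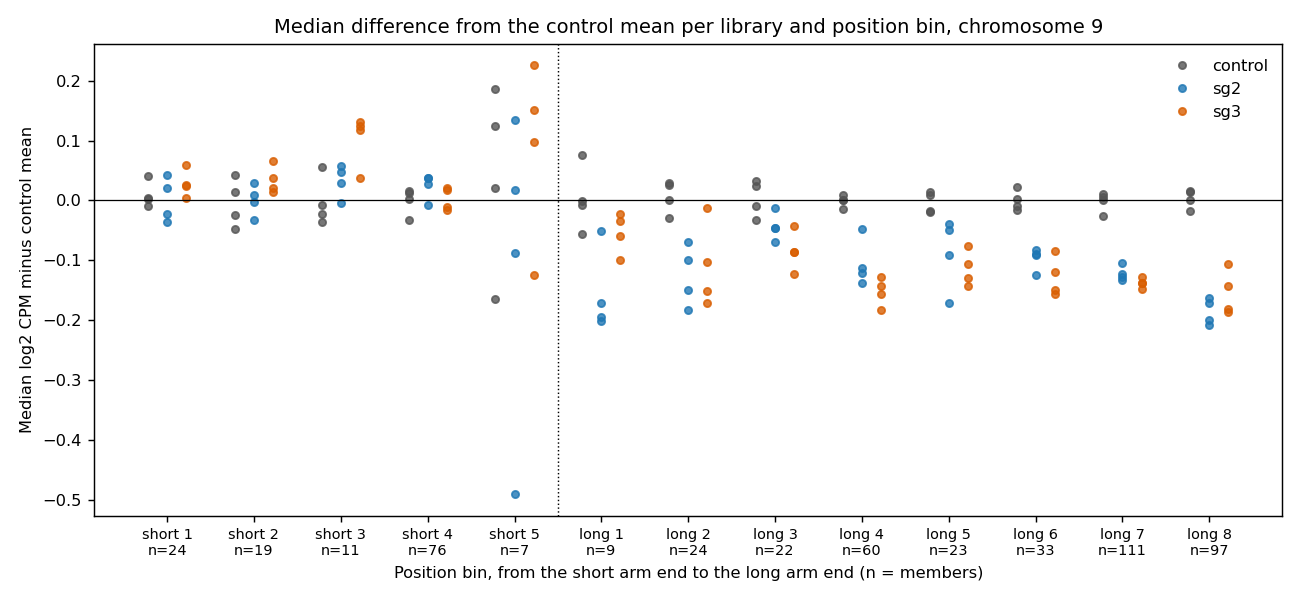
Each point is 1 library: the median over the members of a position bin of log2 CPM minus the control mean (vertical axis), for 5 bins of the short arm and 8 of the long arm in order along the chromosome (horizontal axis), with control, sg2 and sg3 in separate colours. Knockout libraries scatter around 0 on the short arm and lie below 0 in every long-arm bin, with all 8 below all 4 controls in the last 5 bins.

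In bins of 10 Mb every long-arm bin had a median below 0 in the knockout average and with each guide. The medians of the knockout average were -0.175 at 65 to 70 Mb (9 members), -0.118 at 70 to 80 Mb (24), -0.062 at 80 to 90 Mb (22), -0.132 at 90 to 100 Mb (60), -0.092 at 100 to 110 Mb (23), -0.106 at 110 to 120 Mb (33), -0.129 at 120 to 130 Mb (111) and -0.176 at 130 to 140 Mb (97). The last bin, where genes are densest, had 54 members called lower (55.7%) and 13 higher (13.4%). The bin at 80 to 90 Mb was the least shifted, with 7 lower (31.8%) and 2 higher (9.09%). Over all genes tested these shares were 22.3% and 21.6%. From 90 Mb to the end of the arm all 8 knockout libraries had a bin median below all 4 controls, in each of the 5 bins. In the first 3 bins of the arm the libraries of the groups overlapped.

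The bins of the short arm lay on both sides of 0. Their medians were -0.0014 at 0 to 10 Mb (24 members, with KDM4C), 0.024 at 10 to 20 Mb (19), 0.096 at 20 to 30 Mb (11), 0.024 at 30 to 40 Mb (76) and -0.102 at 40 to 43 Mb (7). In all 5 the libraries of the groups overlapped. The bin next to the centromere holds 7 members, 5 of them uncharacterised LOC genes beside CBWD6 and FRG1HP, which have near-identical copies. Only FRG1HP was called, as higher, and the median of the bin spread over the control libraries alone from -0.165 to 0.187. The bin at 20 to 30 Mb had 2 members called higher and 2 lower (18.2% each). Split at the cut sites, 21 members on the telomere side had a median of 0.050, with 8 called higher (38.1%) and 4 lower (19.0%). The 115 on the centromere side had a median of 0.0079, with 24 called each way (20.9%). The centromere-side shares and the telomere-side falls were near those of all genes tested, 21.6% higher and 22.3% lower. Without control library 1 or 2 the telomere-side median was 0.025. The telomere side lay between -0.021 and 0.067 in the sg2 libraries and between 0.039 and 0.089 in the sg3 libraries, against -0.0023 to 0.042 in control.

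**Figure D2:**
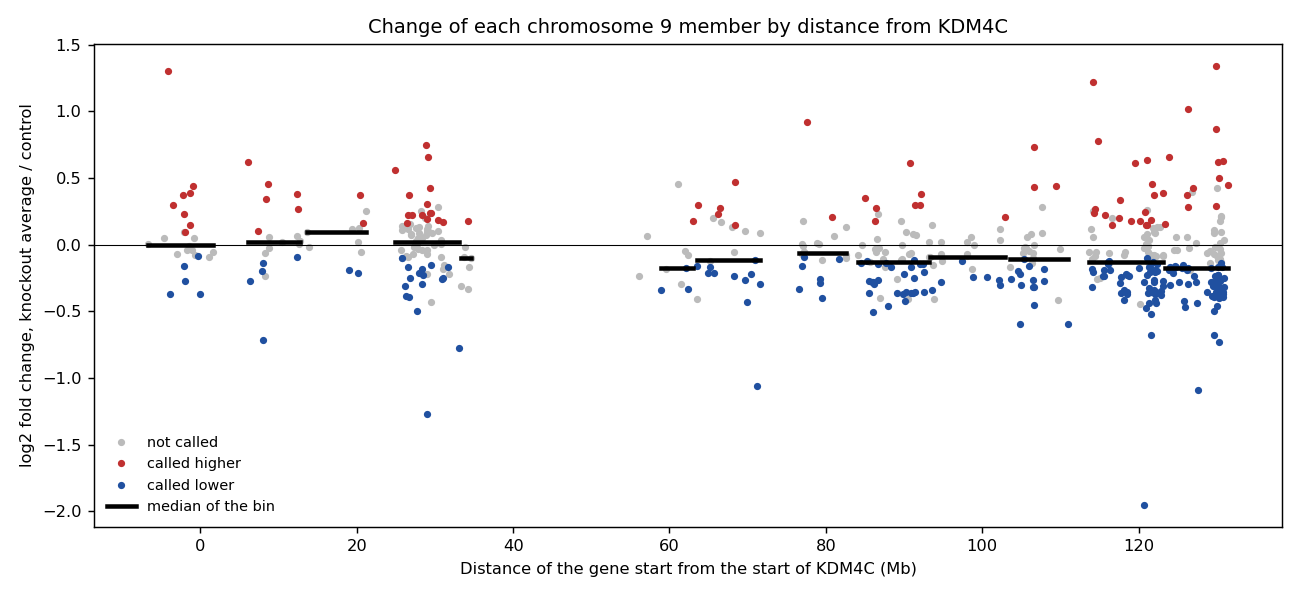
Each point is 1 of the 518 members: its log2 fold change, knockout average against control (vertical axis), by the distance of its start from that of KDM4C in Mb (horizontal axis), coloured by whether it was called, with the median of each bin as a bar. Bars of the short arm lie on both sides of 0, from -0.102 to 0.096, and bars of the long arm lie between -0.062 and -0.176.

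The long-arm median was below 0 in each class of genes examined. By GC content the median was -0.138, -0.095 and -0.165 in the lowest, middle and highest of 3 equal parts, and by gene length it was -0.166, -0.106 and -0.138. By level it was -0.059 in the lowest part, -0.145 in the middle and -0.162 in the highest, and in the lowest part the libraries of the groups overlapped. Protein-coding members had a median of -0.135 (341 members) and other members -0.048 (38 members). For these other members the groups also overlapped, and the control libraries alone spread from -0.109 to 0.188. Of them 8 (21.1%) were called lower, against 22.3% of all genes tested. On the short arm the highest part by level had a median of -0.055, and the lowest 0.076. The middle part had 0.049, with all 8 knockout libraries above all 4 controls. The table was counted with no strand option named in the sources, and 240 members overlap another row by gene body. Long-arm members that overlap no other row had a median of -0.135 (203 members), and such short-arm members -0.017 (73 members).

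**Figure D3:**
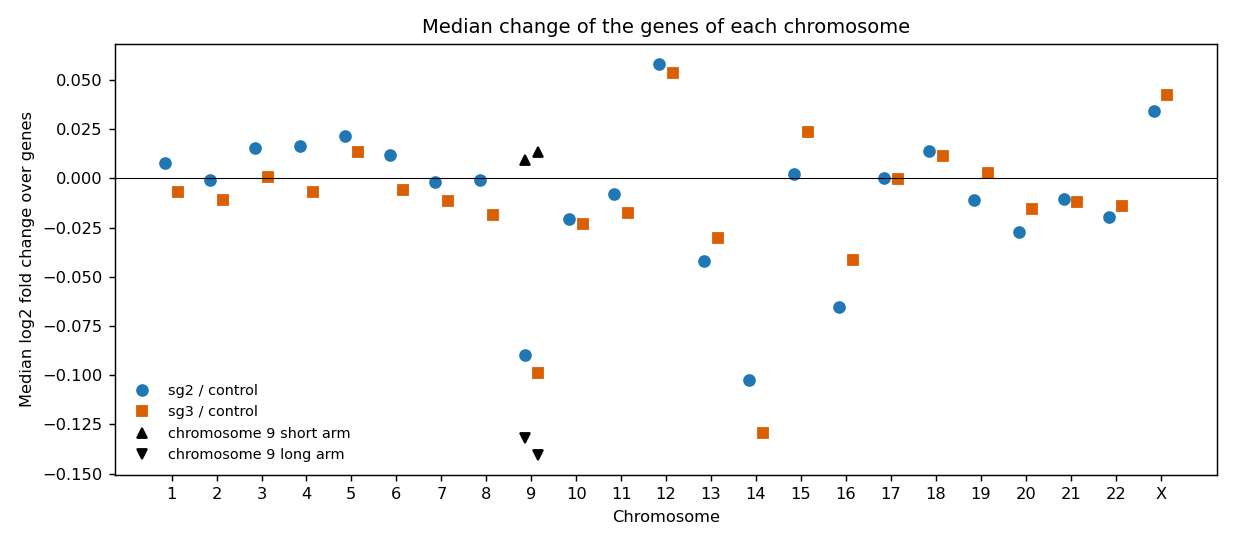
Median log2 fold change over the genes of each chromosome at the same CPM minimum (vertical axis) with sg2 (circles) and sg3 (squares), and the arms of chromosome 9 as triangles. Chromosomes 9 and 14 lie lowest, chromosome 12 highest, and the short arm of chromosome 9 lies near 0.

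Chromosome 9 was not the only chromosome with a shifted median. Over 22 other chromosomes the lowest was chromosome 14 (-0.118, 375 genes), below chromosome 9 as a whole (-0.091), and the highest was chromosome 12 (0.063, 703 genes), with chromosome 16 at -0.060. The other 19 lay between -0.029 and 0.034. Of 278 bins of 10 Mb with at least 10 genes on other chromosomes, 20 (7.19%) had a median of -0.1 or lower, 6 of them on chromosome 14, and the lowest was -0.185. On the long arm of chromosome 9, 5 of the 7 bins with at least 10 members did.

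KDM4C itself, the targeted gene, was lower in each knockout library than in any control. It measured 67.8, 70.2, 68.1 and 71.4 CPM in control libraries 1 to 4, 40.5, 43.01, 49.8 and 55.1 CPM with sg2, and 59.5, 60.8, 63.3 and 63.2 CPM with sg3. KDM4C changed by -0.57 ± 0.07 (SE, log2) with sg2 (adjusted p = 2.59e-05) and -0.17 ± 0.07 with sg3 (adjusted p = 0.0499, edgeR). The sg3 call was lost without any 1 of the 4 control or the 4 sg3 libraries, with adjusted p between 0.0527 and 0.116 in edgeR, without sg2 library 3 (0.0580) and with RLE scaling (0.0508).

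The genes next to KDM4C did not share a direction. The 5 members on its telomere side were RIC1, ERMP1, KIAA2026, RANBP6 and UHRF2, and on the other side DMAC1, PTPRD, LURAP1L, MPDZ and NFIB followed. ERMP1, a peptidase of the endoplasmic reticulum, was 243, 240, 248 and 256 CPM in control, 303, 310, 325 and 333 CPM with sg2 and 349, 347, 341 and 369 CPM with sg3. Its rise of 0.44 ± 0.04 (SE) passed the test with each guide (adjusted p = 2.21e-07 for the average, edgeR). UHRF2, a ubiquitin ligase that binds modified DNA, was 114 CPM in all 4 controls, 102 to 110 CPM with sg2 and 107 to 109 CPM with sg3. Its fall of 0.088 on the log2 scale (adjusted p = 0.0236) was lost without control library 1, 2 or 3 (adjusted p = 0.0787, 0.0611 and 0.0507, edgeR) and without sg2 libraries 1 and 2 together (0.0978). MPDZ, a scaffold of cell junctions, fell by 0.27 and passed with each guide. LURAP1L (0.62) and NFIB, a transcription factor (0.10), were called higher in the average, at 0.601 to 1.27 and 108 to 121 CPM in control. LURAP1L did not pass with sg2 (adjusted p = 0.0898, edgeR), and 3 of 17 alternatives lost its call, among them leaving out control library 3 or 4 (0.0600 and 0.0530). NFIB did not pass with sg3 (0.025, adjusted p = 0.668, edgeR), and 7 of 17 alternatives lost its call, among them leaving out control library 1, 2 or 3 (0.0900, 0.0768 and 0.143). DMAC1 (-0.094), PTPRD (-0.052), RIC1 (-0.036), KIAA2026 (0.050) and RANBP6 (-0.075) did not pass.

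JAK2 and CD274 lie 1.74 and 1.27 Mb from the start of KDM4C, and JAK2 mRNA did not pass the test in either direction. JAK2 was 320, 327, 309 and 343 CPM in control, 294, 300, 315 and 311 CPM with sg2 and 325, 328, 330 and 331 CPM with sg3, and the groups overlapped (log2 fold change -0.038 ± 0.033 SE, adjusted p = 0.367, edgeR). CD274, which encodes the checkpoint ligand PD-L1, was 29.2, 24.6, 27.3 and 28.0 CPM in control, 34.2, 35.3, 34.5 and 36.6 CPM with sg2 and 35.8, 37.2, 35.2 and 34.5 CPM with sg3. All knockout libraries were above all controls (0.39 ± 0.05, adjusted p = 1.27e-05). CNTLN, a centriole protein, was at 131 to 145 CPM in all libraries (0.024, adjusted p = 0.572).

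On the short arm the largest change of a protein-coding member was the rise of VLDLR, a receptor for triglyceride-rich lipoproteins and reelin. It was low throughout, at 0.744, 0.875, 0.291 and 0.901 CPM in control, 1.15, 0.947, 1.79 and 2.66 CPM with sg2 and 2.505, 2.46, 2.44 and 1.58 CPM with sg3. The rise was 1.30 ± 0.28 (SE, adjusted p = 0.00131, edgeR), and its call with sg2 (adjusted p = 0.0328) was lost without control library 1 or 3 or sg2 library 3 or 4 (0.0587 to 0.151). VLDLR reached the CPM minimum in no control library, so the rule for members could only take it through the knockout groups. SNAPC3, a subunit of the complex that starts transcription of small nuclear RNAs, rose by 0.46, from 165 to 188 CPM in control to 202 to 260 CPM in knockout. TEK, the angiopoietin receptor, rose by 0.37, and AQP3 (a water and glycerol channel) and PLIN2 (a coat protein of lipid droplets) by 0.37 and 0.38.

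Among falls on the short arm were genes of ribosome assembly. PUM3, a nucleolar RNA-binding protein, was 402, 396, 396 and 378 CPM in control, 323, 332, 292 and 295 CPM with sg2 and 297, 295, 311 and 286 CPM with sg3. It fell by 0.37 ± 0.04 (SE, adjusted p = 1.96e-06, edgeR). RCL1, needed for processing of small-subunit ribosomal RNA, fell by 0.27 and lay at 378 to 386 CPM in control and 297 to 325 CPM in knockout. RPS6, the ribosomal protein with the highest level per kb of all members, did not pass (2555 to 2963 CPM in control, 2459 to 3015 CPM in knockout, adjusted p = 0.979). DNAJA1 (a co-chaperone) fell by 0.39, VCP (a segregase of ubiquitinated proteins) by 0.29, APTX (a DNA end repair enzyme) by 0.31 and CER1 (a secreted BMP antagonist) by 0.71.

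RMRP, the RNA of the RNase MRP complex that cuts ribosomal RNA precursors, had the largest fall on the short arm and the widest spread. It is shown because it is a single short RNA of 268 bases (hg38 chr9:35657751-35658018, minus strand).
RMRP: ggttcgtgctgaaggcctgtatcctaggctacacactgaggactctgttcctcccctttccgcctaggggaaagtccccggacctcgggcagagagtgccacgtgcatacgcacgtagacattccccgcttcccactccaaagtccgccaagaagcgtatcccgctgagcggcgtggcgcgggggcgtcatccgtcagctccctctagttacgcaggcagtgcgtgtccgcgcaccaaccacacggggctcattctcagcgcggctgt
It measured 47.8, 247, 74.6 and 109 CPM in control, 129, 67.4, 38.9 and 123 CPM with sg2 and 35.2, 32.2, 32.5 and 13.5 CPM with sg3, so the sg2 libraries overlapped control and all 4 sg3 libraries lay below both. The fall of 1.27 ± 0.35 (SE) in the knockout average (adjusted p = 0.0078, edgeR) rested on control library 2, without which the adjusted p was 0.152. With guide sg3 RMRP fell by 2.09 ± 0.45 (adjusted p = 0.00129), and with sg2 the value was -0.45 (adjusted p = 0.443). Sg3 against sg2 gave -1.64 (adjusted p = 0.162).

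On the long arm the falls past 1 on the log2 scale were SLC2A8, RXRA and a long non-coding RNA (LOC107987081, -1.06). RXRA, the retinoid X receptor that pairs with other nuclear receptors, was 13.5, 14.5, 13.6 and 13.7 CPM in control, 5.68, 5.93, 6.18 and 7.27 CPM with sg2 and 7.69, 7.43, 6.03 and 6.04 CPM with sg3. It fell by 1.09 ± 0.08 (SE, adjusted p = 9.94e-08, edgeR), and all knockout libraries lay below all controls. SLC2A8, the intracellular glucose transporter GLUT8, was 1.86, 2.04, 2.21 and 2.63 CPM in control, 0.719, 0.519, 0.498 and 0.547 CPM with sg2 and 0.358, 0.552, 0.574 and 0.648 CPM with sg3. Its fall of 1.95 ± 0.18 was the largest of all members, but it reached 1 CPM in the 4 control libraries alone, so the rule took it only where it was high. Other falls were NPDC1 (0.73), SLC27A4, a fatty acid transporter (0.68), DNLZ, a partner of mitochondrial HSP70 (0.68), and TLR4, the endotoxin receptor (0.59).

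The rises on the long arm stood against the shift of their neighbours. Those past 1 on the log2 scale were HSPC324, TRAF1 and SNORD141A, a small nucleolar RNA. HSPC324 had the largest rise of all members (1.34, adjusted p = 5.25e-05, edgeR), and SNORD141A rose by 1.02 (adjusted p = 0.0112, edgeR). TRAF1, an adaptor of TNF receptors, was 2.08, 3.57, 3.44 and 3.16 CPM in control, 5.39, 5.74, 8.77 and 7.90 CPM with sg2 and 8.17, 8.64, 7.60 and 6.48 CPM with sg3, and rose by 1.22 ± 0.15 (SE, adjusted p = 1.21e-05, edgeR). TMOD1, which caps actin filaments in the red cell membrane skeleton, was 27.9, 27.7, 28.4 and 28.8 CPM in control, 33.9, 39.6, 44.5 and 45.5 CPM with sg2 and 48.8, 46.4, 43.6 and 42.7 CPM with sg3 (0.61 ± 0.06). SH2D3C, an adaptor downstream of receptor kinases, rose by 0.63, PAPPA, a protease that frees insulin-like growth factors, by 0.44, NMRK1, a nicotinamide riboside kinase, by 0.47, and ALDH1A1, a retinaldehyde dehydrogenase, by 0.23. GFI1B, a repressor needed for red cells and platelets, lay at 301 to 322 CPM in control and 309 to 348 CPM in knockout and did not pass (adjusted p = 0.194).

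Members were also grouped by role in 7 lists, some of which share genes. The list of ribosome, translation and RNA processing genes had the lowest median, -0.273, with 28 of its 37 members called lower and 2 higher. On its long-arm part this was 23 of 26 lower and none higher (median -0.293), and on its short-arm part 5 of 11 lower and 2 higher (median -0.183). Over all genes tested 22.3% were called lower. TRUB2, a pseudouridine synthase of mitochondria, was 42.4, 43.8, 43.8 and 41.6 CPM in control, 36.6, 32.3, 28.4 and 28.7 CPM with sg2 and 29.9, 29.8, 27.8 and 25.1 CPM with sg3. It fell by 0.52 ± 0.06 (SE). GTF3C4, a subunit of the factor that recruits RNA polymerase III, was 97.0 to 103 CPM in control and 66.8 to 77.9 CPM in knockout, a fall of 0.47. SNAPC4, the partner of SNAPC3 in its complex, fell by 0.50 while SNAPC3 rose by 0.46. EXOSC2 and EXOSC3 of the RNA exosome fell by 0.30 and 0.25, and the mitochondrial ribosomal proteins MRPS2 and MRPL41 by 0.35 each. RPL12 and RPS6 did not pass, RPL35 fell by 0.34 (adjusted p = 0.0278, edgeR) with libraries of the groups overlapping, and counts of ribosomal protein genes are uncertain because of their many processed copies. HNRNPK, an abundant RNA-binding protein, fell by 0.091 (adjusted p = 0.0388), and 9 of the 17 alternatives lost this call, such as leaving out control library 1 (0.162, edgeR).

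Of 19 chromatin and histone regulators 12 (63.2%) were called lower and none higher (median -0.109), where 22.3% and 21.6% of all genes tested were. On the long arm 9 of 13 were lower (69.2%, against 46.7% of all long-arm members), and on the short arm 3 of 6. The 12 of the list and the 3 of the short arm include KDM4C itself, the targeted gene. WDR5, a core subunit of the histone H3 lysine 4 methyltransferases, was 83.9, 79.8, 82.9 and 76.8 CPM in control, 62.4, 64.9, 57.3 and 58.0 CPM with sg2 and 59.0, 59.7, 58.2 and 57.3 CPM with sg3. It fell by 0.44 ± 0.04 (SE, adjusted p = 4.36e-07, edgeR), with all knockout libraries below all controls. POLE3, a histone-fold subunit of DNA polymerase epsilon, fell by 0.45 (133 to 143 CPM in control, 95.8 to 114 CPM in knockout). SET, a histone chaperone, fell by 0.28, and EHMT1, a histone H3 lysine 9 methyltransferase, by 0.25. On the short arm SMARCA2, an ATPase of the SWI/SNF complex (0.054), PSIP1, which tethers proteins to chromatin (0.062), and MLLT3, a reader of acylated histones (0.096, adjusted p = 0.0506, edgeR), did not pass in the average. MLLT3 passed with sg3 (0.12, adjusted p = 0.0347, edgeR).

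Of 40 members for protein folding, degradation and trafficking 20 (50%) were called lower and 4 higher (median -0.122), against 22.3% and 21.6% of all genes tested. Their long-arm part, with 15 of 28 lower (53.6%), was near the 46.7% of the whole arm. HSPA5, the main chaperone of the endoplasmic reticulum, was 903, 881, 904 and 842 CPM in control, 742, 774, 672 and 647 CPM with sg2 and 668, 652, 659 and 656 CPM with sg3 (-0.37 ± 0.04 SE, adjusted p = 4.65e-06, edgeR). SEC61B of the protein translocation channel fell by 0.36, and the proteasome genes PSMB7 and PSMD5 by 0.29 and 0.32. Of 54 metabolic and mitochondrial members 24 (44.4%) were called lower and 9 higher (median -0.115). On the long arm 22 of 39 were lower (56.4%, against 46.7% of the arm), and on the short arm 2 of 15. ISCA1, needed for iron-sulfur clusters, fell by 0.40, COQ4, of coenzyme Q synthesis, by 0.35, and NDUFA8, of respiratory complex I, by 0.23. ALAD, an enzyme of heme synthesis, did not pass, at 45.5 to 54.0 CPM in control and 44.2 to 53.4 CPM in knockout.

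Of 29 transcription factors and cofactors, 24 of them on the long arm, 13 (44.8%) were called lower and 6 (20.7%) higher (median -0.135). Of all genes tested 22.3% were called lower and 21.6% higher. The 13 falls were among the 24 long-arm members (54.2%, against 46.7% of that arm). Of 28 tumour suppressor, cell cycle and DNA repair members 13 (46.4%) were lower and 3 (10.7%) higher (median -0.096). Their long-arm part, with 10 of 20 lower (50%), was near the 46.7% of the whole arm, and on the short arm 3 of 8 were lower. TSC1, an inhibitor of mTORC1, fell by 0.19, ANAPC2, of the anaphase-promoting complex, by 0.32, and ERCC6L2, a DNA repair helicase, by 0.36. Of 28 cytokine, immune and kinase signalling members 10 (35.7%) were called higher and 9 (32.1%) lower (median 0.036). On the long arm 8 (34.8%) were higher and 9 (39.1%) lower, against 13.5% and 46.7% of that arm. ABL1, a tyrosine kinase, was 97.6, 98.4, 100.3 and 93.9 CPM in control, 85.6, 90.0, 83.6 and 84.7 CPM with sg2 and 85.1, 85.3, 90.8 and 90.7 CPM with sg3, a fall of 0.17. SYK (-0.073) and NOTCH1 (-0.017) did not pass, and TGFBR1, a receptor for TGF-beta, fell by 0.15.

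The guides were compared with each other directly, in a contrast that leaves out the control mean. The fit behind it, with its estimate of spread, still used the control libraries. None of the 518 members passed in edgeR for sg3 against sg2, where 0.00714% of all genes did (1 of 13996), and 86 members (16.6%) had an unadjusted p under 0.05, against 15.0% of all genes. DESeq2 called 8 members and limma-voom 1. The smallest adjusted p of a member was 0.0641, for KDM4C, which was 0.40 higher with sg3. The median difference was -0.0061 on the long arm and -0.0027 on the short arm.

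Apart from the members, 543 chromosome 9 rows had no count in any library. The stretch without expression that held the most rows lay on the short arm from HACD4 to IZUMO3 (hg38 chr9:20999509-24545930). Its 41 rows, 24 of them protein-coding, held 5 counts over all 12 libraries out of 277760340, and 37 were at 0. It holds CDKN2A and CDKN2B, cell cycle inhibitors, MTAP, an enzyme of methionine salvage, KLHL9, and the interferon alpha and beta genes. MTAP and CDKN2B had 0 counts, which allows up to 0.0108 CPM over the 12 libraries (3 counts, counting error only), and CDKN2A had 2 counts. On either side FOCAD (40.6 CPM in control), MLLT3 (263 CPM), TUSC1 (88.4 CPM) and CAAP1 (83.5 CPM) were expressed, and the stretch was empty in control and knockout alike.

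**Figure D4:**
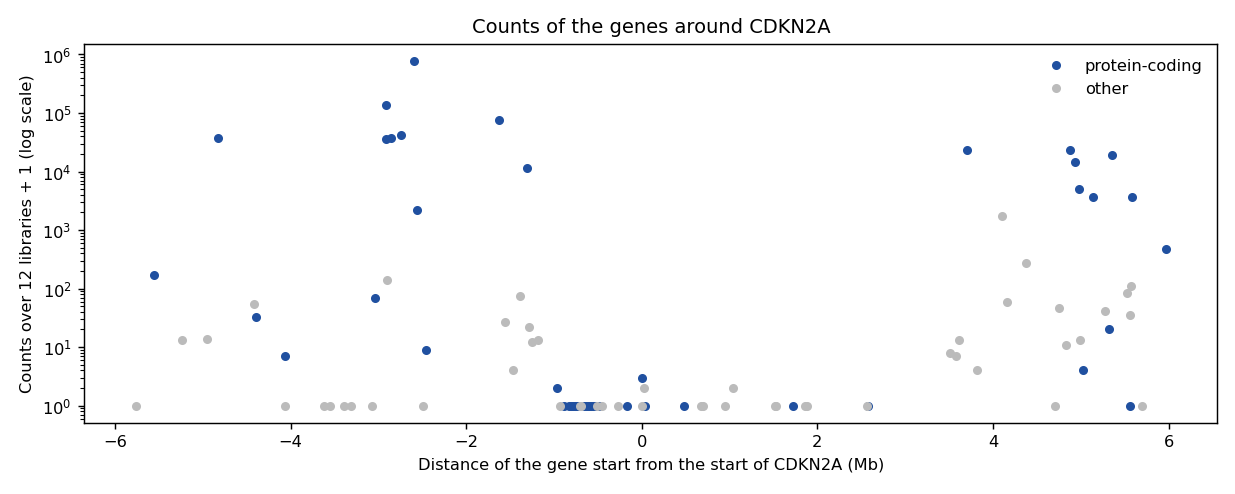
Counts over all 12 libraries plus 1 (vertical axis, log scale) of the rows around CDKN2A by the distance of their start from that of CDKN2A in Mb (horizontal axis), with protein-coding rows in blue and others in grey. Rows in the stretch that holds CDKN2A have at most 2 counts each, while FOCAD on one side reaches 11300 and TUSC1 on the other 23001.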

How the data were processed

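Per the study's methods and the submitters' processing notes, the authors used Trimmomatic 0.39 for trimming, STAR 2.7.4a for alignment of the paired-end reads to hg38, and featureCounts 2.0.1 for counts per gene. The study's methods call the reads strand-specific, but the featureCounts parameters they list (-pB) hold no strand option. Reads of overlapping genes on opposite strands may thus not have been told apart. Annotation and library kit were not given in the sources used here. The deposited table holds raw counts, not normalized, and the authors' gene length in bases, a value of another kind, used here only for levels per kb. The table has 38571 lines, and 38551 genes were read from it, leaving out 20 lines that long cells had split. All 470 members with a GENCODE release 44 symbol overlapped that gene in position.

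The fit used edgeR 4.0.16 under R 4.3.3 on raw counts (filterByExpr, min.count 10, min.total.count 15, TMM, glmQLFit and glmQLFTest, 1 mean per group over all 12 libraries) on 13996 genes, with Benjamini-Hochberg adjustment and a threshold of 0.05. The test was checked on simulated data. CPM are scaled by TMM, except in the rule for members, which used plain CPM. The SE is the size of the log2 fold change divided by the root of the F statistic, and log2 CPM used a prior count of 2. DESeq2 1.42.0 and limma 3.58.1 (voom) were alternatives, beside other scalings, no filter, other members, bin edges and widths, GC-adjusted values, a replicate block and libraries left out. Reduced chi-square values of 1.71 to 12.4 over 18 replicate pairs showed no pair within sampling noise.

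Exactly 4 members met the minimum in 4 libraries alone (median 0.620 to 0.928 CPM), and 7 rows missed it with 3 libraries (0.816 to 0.928 CPM). The rule took 1 member (SLC2A8) through control libraries alone and 5 (VLDLR, SLC28A3, DAB2IP, MVB12B and LOC100272217) through knockout libraries alone. For 1 member the smallest start lies on another sequence, and its chromosome 9 entry was used. Named genes were KDM4C, JAK2, UHRF2, CNTLN and RXRA, the 5 neighbours of KDM4C on each side, the 8 largest rises and falls of protein-coding members (called in the average and by each guide, average log2 CPM 2 or more), the largest called differences of sg3 from sg2 (none was called), the member with the largest called change and the highest level per kb in each bin, and up to 4 called members and the most expressed one of each list. Other genes in the text were chosen after their values were seen, as examples of a list or a region. Members and lists were chosen with earlier results of these data known.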

Additional observations from a re-analysis of the deposited data

Results flagged for a closer look

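Of 255 groups of 4 libraries screened (named members and medians of arms and bins), 13 held 1 library far from the other 3. This share is close to the 1 in 20 that chance gives, so single entries below may be chance. The median of the short arm on the telomere side was 0.0416 in control library 4, against -0.0023 to 0.0029 in the other controls. For the bin at 20 to 30 Mb sg3 library 3 was lowest, at 0.0367, against 0.117 to 0.1315, and for the bin at 110 to 120 Mb sg2 library 3 was lowest, at -0.125, against -0.0905 to -0.0835.

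Among single members VLDLR was lowest in sg3 library 4 (1.58 CPM, the others 2.44 to 2.505) and RMRP in the same library (13.5 CPM, the others 32.2 to 35.2). TLR4 was highest there, at 4.97 CPM against 3.59 to 3.72. UHRF2 was lowest in sg3 library 1 (106.7 CPM against 109.1 to 109.3), DAB2IP in sg3 library 2 (1.36 CPM against 1.66 to 1.67), and CBWD5, a member of a family of near-identical copies, was highest in sg3 library 3 (11.4 CPM against 8.41 to 8.54). CNTLN was highest in sg2 library 2 (144.6 CPM against 136.6 to 137.7) and GFI1B lowest in sg2 library 1 (308.9 CPM against 322.7 to 325.5). In control library 4 POLE3 was lowest, at 132.8 CPM against 142.3 to 143.3, and GTF3C4 highest, at 102.7 CPM against 97.05 to 97.42.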

How the results depend on the processing

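Of 3657 results of named genes under alternatives, 3487 kept direction and side of the threshold, 27 passed newly, 143 no longer passed and none reversed, and 46 of the 55 named genes called in the average kept their call throughout. The count of members called for the average lay between 241 and 305 over all alternatives, against 289, and the percentage of long-arm bins with a median below 0 between 93.3 and 100.

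The sg3 against sg2 count of 0 was 8 with DESeq2, 1 with limma-voom, 11 with no filter on low counts and 1 with the replicate block, and 0 to 7 with 1 library left out (7 without sg2 library 4). The replicate block moved no other count by more than 1.5 times, giving 279 calls for the average, 202 for sg2 and 281 for sg3. Numbers did not pair the samples, since deviations of same-numbered libraries correlated between -0.167 and 0.180.

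The long-arm median was -0.0945, -0.098 and -0.091 for the average, sg2 and sg3 as a mean over members and -0.15, -0.148 and -0.174 with GC-adjusted log2 CPM. With 1 library left out it lay between -0.139 and -0.12, -0.133 and -0.116, and -0.151 and -0.132. The telomere-side median was 0.112, 0.073 and 0.152 as a mean, 0.0969 (average) and 0.101 (sg2) without sg2 libraries 1 and 2, and 0.0185 (sg3) with members at 1 CPM in all 12 libraries. With 1 library left out it lay between 0.0246 (without control library 2) and 0.0586 for the average, between -0.00065 (without control library 1, where the sign turned) and 0.0607 for sg2, and between 0.0514 and 0.0881 for sg3. The centromere-side median was 0.0237 (average) without sg2 libraries 1 and 2 and -0.0127 (sg3) with GC-adjusted values, and lay between -0.000552 and 0.0251 for sg3 with 1 library left out. The cause of these shifts was not tested.

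Calls of the average were lost for AK3 (6 of 17 alternatives), ANP32B (10), DAB2IP (10), HAUS6 (6), HNRNPK (9), LURAP1L (3), NFIB (7), RMRP (1) and UHRF2 (4). Low members limit single calls, while medians over arms pool many genes that share libraries. The percentage of short-arm bins with a median below 0 was 40, 20 and 60 for the average, sg2 and sg3, and over alternatives it lay between 20 and 40, 20 and 40, and 0 and 60.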

Other observations

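The surfeit cluster near the end of the long arm was nearly without counts. RPL7A, a ribosomal protein gene, had 10 counts over the 12 libraries, SURF1, an assembly factor of cytochrome c oxidase, had 10, SURF4, a cargo receptor, had 15, and SURF6 and MED22 had 0. Each of these rows has entries on a second sequence besides chromosome 9, as do 26 chromosome 9 rows in all, of which 1, ABO, was a member and 12 had no count. The part of this double entry in the low counts was not tested, and these rows are outside the members.

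A stretch without expression that was longer in bases (4410047 against 3546422) but held fewer rows lay on the long arm, with 28 rows at hg38 chr9:78860787-83270833 that hold TLE4 and TLE1, co-repressors of the Groucho family, and RASEF. Its rows held 23 counts over the 12 libraries, and 23 were at 0.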
